A study of Mus musculus with 14 samples.

Results

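Cells labelled as adult hippocampal precursor cells were sorted into 3 classes by how much reactive oxygen species (ROS) they held. The results here concern the middle class, ROS++, set against both other classes at once. For each gene the mean of the 5 ROS++ libraries was compared with the average of the ROS+ mean (5 libraries) and the ROS+++ mean (4 libraries). The contrast is 0 for a gene that changes by equal log2 steps from class to class, and it departs from 0 for a gene that is high or low in the middle. All 14 of the 14 libraries of the study entered it. Every class came from the dentate gyrus of B6.Cg-Tg(Nes-EGFP)1Yamm mice, which carry enhanced green fluorescent protein driven by sequences of the Nestin gene. All cells were GFP+ and none was treated, and the labels set GFP+ROS+, GFP+ROS++ and GFP+ROS+++ cells apart only by the dihydroethidium fluorescence on which the sorter separated them. Dihydroethidium is a dye whose oxidation products, formed with superoxide among others, fluoresce in the cell. The labels give no animal, sex, age or batch for any library. Nothing says that replicates came from separate animals, so that the p-values measure the spread between these libraries, which may be partly technical.

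In the adult dentate gyrus, radial glia-like stem cells are mostly quiescent, and on activation they give rise to dividing intermediate progenitors, which become neuroblasts and then granule neurons. The cell cycle leaves a strong mark on RNA: genes for DNA replication are transcribed under E2F factors around the entry into S phase, and genes for mitosis later, in G2, when the repressive DREAM complex has given way to activating factors on CCAAT boxes and cell cycle homology regions (CHR). Nestin regulatory sequences are also active outside the neural lineage, for example in pericytes, so that a GFP gate can hold several cell types.

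The depth over all genes in the table ran from 18325361 to 23454022 reads in ROS++ libraries, with 20832009 to 25313902 reads in ROS+ and 12704227 to 20998589 in ROS+++. The 10 most abundant genes took 5.62 to 7.23% of the reads in ROS++ libraries, 5.81 to 6.96% of them in ROS+ and 11.2 to 12.1% in ROS+++. A gene without reads may still be present at up to 3 reads (95% limit), which is 0.119 to 0.236 CPM, the counts scaled to a common library total. This limit covers counting error only, since amplified reads without molecular identifiers are not independent molecules. *Nes* itself, the gene behind the gate, rose from class to class, with means of 16.6, 95.5 and 227 CPM (adjusted p = 2.27e-07 and 0.000716). The labelled cell type was checked on marker lists. Neuroblast genes summed to 17768 to 23911 CPM in ROS+, 3007 to 5244 CPM in ROS++ and 254 to 841 CPM in ROS+++ libraries, radial glia-like genes to 4576 to 6017, 13623 to 16681 and 16603 to 20087 CPM, and mural (pericyte and smooth muscle) genes to 266 to 849, 9910 to 28832 and 64140 to 74700 CPM. These are bulk samples, in which fewer cells of a type and less RNA per cell cannot be told apart.

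Of 15102 genes tested with limma on log2(CPM + 1), 2691 differed between ROS++ and the average of the other classes at a Benjamini-Hochberg adjusted p under 0.05. Of these, 2267 (15.0% of genes tested) were higher in ROS++ and 424 (2.81%) were lower. A gene can reach this in several ways, which were separated with the pairwise comparisons. In 413 genes (2.73%), called highest in ROS++ below, ROS++ was above ROS+ and above ROS+++, each at an adjusted p under 0.05. In 76 genes (0.503%), called lowest in ROS++, it was below both in the same sense. In 844 called genes the ROS++ mean lay between the other means, 719 above the midpoint and 125 below it. In the remaining 1135 higher and 223 lower genes, ROS++ had the extreme mean but the test was not passed against both classes. Of those 1135, 811 passed against ROS+++ only, 323 against ROS+ only and 1 against neither.

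The separation of libraries was also counted without a model. In 257 genes (1.7%) every ROS++ library was above all 9 others, and in 32 (0.212%) every one was below. Of the genes highest in ROS++, 199 of 413 had such separate libraries, and of those lowest in ROS++, 29 of 76. The smaller of the 2 differences had a median of 1.10 on the log2(CPM + 1) scale over the 413 genes, from 0.29 to 3.23, and of -0.76 over the 76 genes, down to -2.16. At least 2-fold differences from both classes on that scale were found in 225 and 26 genes. Among the 413, 279 had ROS+ above ROS+++ and 134 the reverse, and among the 76 there were 38 of each.

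**Figure D1:**
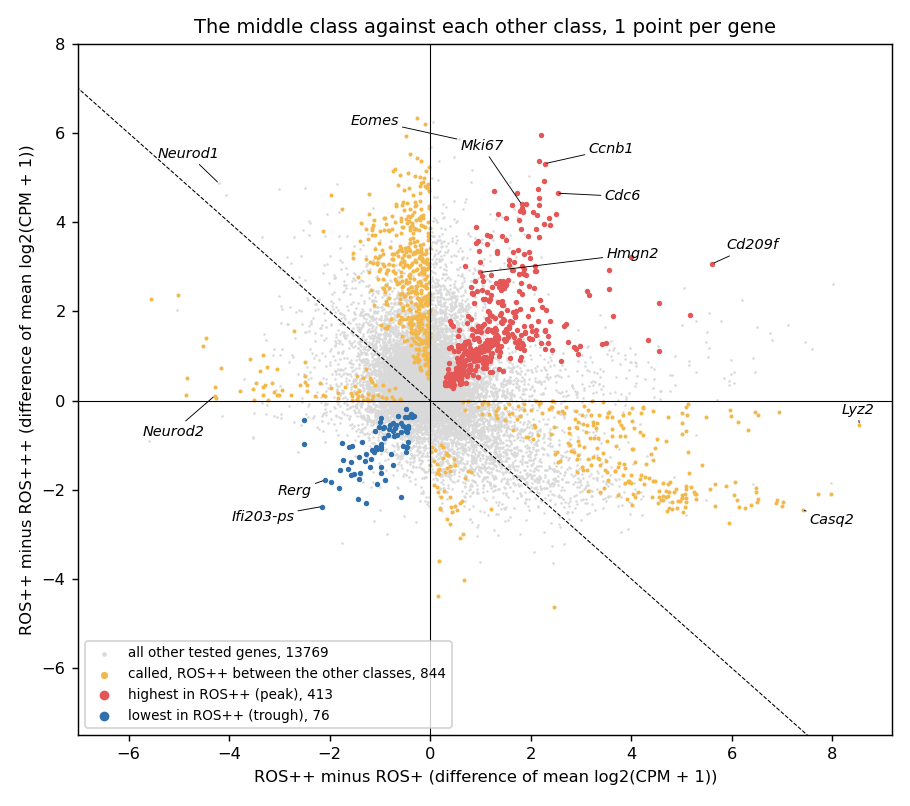
Each point is 1 of the 15102 genes, with the difference ROS++ minus ROS+ on the x axis and ROS++ minus ROS+++ on the y axis, both as differences of mean log2(CPM + 1). The 413 genes highest in ROS++ fill the upper right, the 76 lowest the lower left, the 844 called genes with ROS++ between the other classes are orange, and grey points are all others, the 1358 genes with an extreme ROS++ mean and 1 or no pairwise test passed included. On the dashed line the contrast is 0.

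The balance of the calls depended on the scaling of the libraries. The median contrast over all genes was 0.18 when scaled by library totals, -0.002 by relative log expression factors, 0.05 with TMM factors (trimmed mean of M values) and 0.06 with upper-quartile factors. The share of calls that were higher in ROS++ was 84.2% with totals and 60.5, 68.5 and 69.6% with the other scalings. Genes lowest in ROS++ numbered 76 with totals and 230, 177 and 159 with the others, and genes highest in ROS++ 413 against 242, 288 and 291. Under all 4 scalings 235 of the 413 stayed highest and 66 of the 76 stayed lowest, with separate libraries in 133 and 28. Genes named below as highest or lowest kept that call under the 4 scalings unless a scaling that ends it is named.

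Cell division genes made up 55 (13.3%) of the 413 genes highest in ROS++, counted over 3 lists with 121 of the 15102 genes tested. The lists were chosen with earlier results of these data known. Counts in each list from here on stand beside 15.0% of all genes called higher and 2.81% called lower. Of all genes, 2.73% were highest and 0.503% lowest in ROS++. In the list of DNA replication and S phase, 37 of 44 genes tested were called higher in ROS++, 0 were lower, and 21 were highest in ROS++. The median contrast was 1.36, with median differences of 0.82 from ROS+ and 2.24 from ROS+++, beside 0.18, -0.03 and 0.34 over all genes. The summed list held 2243 to 3451 CPM in ROS++ libraries, 1523 to 1892 in ROS+ and 705 to 1010 in ROS+++, with no overlap between the classes.

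*Cdc6*, which loads the replicative helicase at origins, led the list by the smaller of its 2 differences. It had 37.5, 38.9, 37.3, 34.4 and 73.2 CPM in the ROS++ libraries, against 20.1, 10.3, 6.78, 10.1 and 0.141 in ROS+ and 4.58, 0, 0.381 and 0.157 in ROS+++. Every ROS++ library was above all others, with a contrast of 3.59 ± 0.56 (SE) and an adjusted p of 0.000337. The difference from ROS+ was 2.53 ± 0.63 and from ROS+++ 4.65 ± 0.67. On the deposited log2 values, where low counts weigh more, the difference from ROS+ had an adjusted p of 0.0638, the highest of its range over the alternatives (0.000495 to 0.0638). *Mcm5*, a subunit of that helicase, had 52.9 ± 11.1 CPM (SD, n = 5) in ROS+, 109 ± 40.1 (n = 5) in ROS++ and 9.47 ± 2.57 (n = 4) in ROS+++. Its ROS++ libraries held 88.3, 116, 93.5, 70.5 and 174 CPM and were all above the ROS+ libraries, at 37.9 to 66.4 CPM. *Rfc4*, a subunit of the clamp loader, was even across ROS++, at 83.6, 87.2, 77.2, 87.5 and 79.7 CPM in ROS++ against 35.1 to 49.7 in ROS+ and 25.1 to 32.1 in ROS+++. *Rrm1*, the large subunit of ribonucleotide reductase, differed from ROS+ by 0.40 ± 0.14 with an adjusted p of 0.0453. Its libraries overlapped, at 144 to 263 and 128 to 169 CPM, and the comparison missed the threshold in 9 of 26 alternatives, 8 of which left out 1 library (ROS+ replicate 2, 3, 4 or 5, ROS++ replicate 1, 2 or 5, or ROS+++ replicate 2; adjusted p up to 0.1165) and 1 of which had the library-number sets as a block (0.0519).

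Members outside the rule for named genes were picked after their values were seen. Of the helicase subunits, *Mcm2*, *Mcm3*, *Mcm4* and *Mcm6* were also highest in ROS++, for example *Mcm6* at 20.5, 60.6 and 20.9 CPM. *Mcm7* was not: it had 232 CPM in ROS+, 168 in ROS++ and 38.3 in ROS+++. *Pcna*, the sliding clamp, had nearly equal means in the outer classes, 93.5 and 94.00 CPM, and 173 CPM in ROS++. *Uhrf1* (16.9, 52.7 and 3.799 CPM), which carries DNA methylation through replication, and *Tk1* (9.25, 39.6 and 4.18 CPM), thymidine kinase, were highest too.

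The mitosis and G2 list moved further. Of its 44 genes tested, 40 were called higher in ROS++, 0 lower, and 24 were highest in ROS++. The median contrast was 2.49, with median differences of 1.72 from ROS+ and 3.52 from ROS+++. *Ccnb1*, cyclin B1, had 47.3, 93.5, 100.5, 68.2 and 124 CPM in the ROS++ libraries, against 40.2, 4.37, 27.6, 46.5 and 3.800 in ROS+ and 9.26, 0.294, 0.238 and 0.157 in ROS+++. ROS++ was above all others and ROS+++ nearly empty but for replicate 1, and the contrast was 3.80 ± 0.62 (adjusted p = 0.000656). *Ccnb2*, cyclin B2, had 11.3 ± 9.905, 41.5 ± 8.96 and 3.29 ± 4.85 CPM in ROS+, ROS++ and ROS+++. *Mki67*, the common marker of cycling cells, had 52.1, 99.8, 169.5, 74.7 and 81.2 CPM in the ROS++ libraries, against 33.2, 14.7, 37.7, 54.1 and 8.02 in ROS+ and 12.8, 3.39, 0.238 and 3.23 in ROS+++. One ROS++ library lay below the highest ROS+ library, and all were above ROS+++. The contrast was 3.11 ± 0.50 (adjusted p = 0.000505), with adjusted p-values of 0.0215 against ROS+ and 2.35e-05 against ROS+++. *Cdca8*, borealin of the chromosomal passenger complex, kept its call in all 26 alternatives, with 26.5 ± 16.4, 79.6 ± 26.5 and 2.51 ± 2.05 CPM. *Ndc80*, of the outer kinetochore, had 11.2 ± 7.03, 41.4 ± 15.6 and 1.53 ± 2.54 CPM, and without the prior count of CPM + 1, on the deposited values, its comparison with ROS+ had an adjusted p of 0.0731 (range 0.00138 to 0.0731).

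The ROS+ libraries were uneven in this list. Its sum was 1277, 544, 1351, 1492 and 413 CPM in ROS+ replicates 1 to 5, 1989, 2710, 3381, 1912 and 2610 CPM in ROS++ and 829, 565, 516 and 523 CPM in ROS+++. ROS+ replicates 2 and 5 were as low as ROS+++. The counts turned on these libraries: without replicate 2 of ROS+ the genes highest in ROS++ fell from 24 to 11, without replicate 5 to 12, and without replicate 3 of ROS++ to 14, while 38 to 41 genes stayed called higher. With 0.25 CPM added in place of 1, 14 were highest, with 4 CPM 32, and on the deposited log2 values 10. *Ccnb1*, *Kif23*, *Mki67* and *Pbk* lost the comparison with ROS+ when either of those ROS+ replicates was left out, and *Ccnb2* when replicate 2 was. The adjusted p for *Ccnb1* was then 0.0603 or 0.0583, for *Kif23* 0.0584 or 0.0568, for *Mki67* 0.0563 or 0.0610, for *Pbk* 0.0724 or 0.0550 and for *Ccnb2* 0.0508. With the library-number sets as a block *Ccnb1* had 0.0511. *Mki67* lost it also without replicate 3 of ROS++ (0.0551), and *Pbk* without replicate 2 or 5 of ROS++ (0.0513 and 0.0527). On the deposited log2 values the comparison with ROS+ had adjusted p-values of 0.0760 (*Ccnb1*), 0.0898 (*Kif23*), 0.0933 (*Mki67*), 0.0665 (*Pbk*) and 0.0833 (*Ccnb2*). With 0.25 CPM added in place of 1, *Kif23* (0.0502), *Mki67* (0.0568) and *Pbk* (0.0521) lost it too. *Racgap1*, for cytokinesis, had 35.8, 66.2 and 1.89 CPM and missed the threshold against ROS+ with all libraries (0.82 ± 0.40, adjusted p = 0.14). The S phase sums of ROS+ replicates 2 and 5, 1717 and 1523 CPM, were within or near the range of the other ROS+ replicates, 1714 to 1892 CPM.

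Promoters of both lists were searched for short sequences known from cell cycle genes. The windows reach from 250 bases before to 50 after each RefSeq start (build GRCm38.p6). The motifs searched on both strands were CCAAT, the CHR core TTTGAA, and the E2F cores TTGGCGC and TTCCCGC. Of the 21 replication genes highest in ROS++, 16 had a window in the table, 19 windows in all, and of the 24 mitosis genes 19 had one, 20 windows in all. E2F cores stood in 57.9% of the replication windows and 10% of the mitosis windows, against 11.6% of the 13998 windows of all genes tested and 6.81% of all 32851 windows. The CHR core stood in 5.26% and 80.0%, against 12.2% and 17.9%. CCAAT stood in 57.9% and 75.0%, against 37.5% and 37.4%. Over all tested members of the lists the shares were similar: 47.5% of 40 replication windows and 15.8% of 38 mitosis windows held an E2F core, 7.5% and 76.3% the CHR core, and 55.0% and 76.3% CCAAT. A match is a description of these letters and not a measured site. The 2 genes shown from each list were chosen by adjusted p among genes highest in ROS++ that hold at least 2 motif kinds in a window. That several kinds stand together in these genes therefore follows from the choice. The 250 bases before each start are shown 5′ to 3′ on the gene's strand, with every match in either orientation in capitals. They lie at chr8:75109259-75109508 on the plus strand (Mcm5), chr7:102441445-102441694 on the plus strand (Rrm1), chr4:124936918-124937167 on the minus strand (Cdca8) and chr7:135716380-135716629 on the minus strand (Mki67).
Mcm5: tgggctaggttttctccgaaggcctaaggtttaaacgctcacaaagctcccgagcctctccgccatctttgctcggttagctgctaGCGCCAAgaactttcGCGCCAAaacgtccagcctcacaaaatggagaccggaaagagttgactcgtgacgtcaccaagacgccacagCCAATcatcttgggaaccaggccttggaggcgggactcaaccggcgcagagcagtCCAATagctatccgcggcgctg
Rrm1: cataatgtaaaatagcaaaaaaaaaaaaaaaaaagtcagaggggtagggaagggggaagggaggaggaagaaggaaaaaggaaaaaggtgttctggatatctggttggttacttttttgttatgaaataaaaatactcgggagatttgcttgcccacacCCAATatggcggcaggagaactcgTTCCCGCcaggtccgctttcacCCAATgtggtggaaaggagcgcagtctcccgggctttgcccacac
Cdca8: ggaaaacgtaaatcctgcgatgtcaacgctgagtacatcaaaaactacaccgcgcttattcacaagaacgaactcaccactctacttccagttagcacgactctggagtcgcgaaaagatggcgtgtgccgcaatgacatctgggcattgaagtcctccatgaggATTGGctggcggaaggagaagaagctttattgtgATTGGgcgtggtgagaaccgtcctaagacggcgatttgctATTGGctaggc
Mki67: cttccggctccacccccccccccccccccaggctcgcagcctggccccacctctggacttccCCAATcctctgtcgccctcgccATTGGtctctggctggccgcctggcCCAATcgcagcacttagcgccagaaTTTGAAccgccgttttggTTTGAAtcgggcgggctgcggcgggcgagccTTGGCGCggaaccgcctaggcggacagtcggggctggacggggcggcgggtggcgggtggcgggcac
The Mcm5 and Rrm1 stretches hold E2F cores beside CCAAT. In Cdca8 the capitals are 3 CCAAT boxes in the reverse orientation, the last 11 bases before the start. The other motif kind counted for Cdca8 does not lie within the stretch shown. Mki67 holds CCAAT, CHR and E2F letters together, with CHR cores at positions -116 and -98 from the start.

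DNA repair and chromatin genes of dividing cells followed: 24 of 33 were called higher, 0 lower, and 10 were highest in ROS++, with a median contrast of 0.95. *Hmgn2*, a nucleosome-binding protein, had 767, 848, 1104, 975 and 826 CPM in the ROS++ libraries, against 454, 371, 531, 479.8 and 429.8 in ROS+ and 156, 107, 102 and 127 in ROS+++. The 3 classes did not overlap, and its contrast of 1.93 ± 0.12 had the adjusted p 4.22e-08. *Hmgb2*, a DNA-bending protein, held 187 to 254 CPM in ROS++ against 54.98 to 105.1 in ROS+ and 45.6 to 64.7 in ROS+++. *Brca1*, of homologous recombination, had 26.8, 39.02 and 0.769 CPM and did not differ detectably between ROS++ and ROS+ (adjusted p = 0.315).

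Among G1 regulators and cyclin-dependent kinase inhibitors the picture was mixed. Of 27 genes 9 were higher (33.3%), 2 lower (7.41%) and 3 highest in ROS++ (11.1%), beside 15.0, 2.81 and 2.73% of all genes. *Ccnd2*, cyclin D2, was highest, with 405, 442, 652, 512 and 640.2 CPM in the ROS++ libraries, against 292, 308, 305, 267 and 247 in ROS+ and 143, 303, 245 and 149 in ROS+++, and no ROS++ library overlapped with another class. *Cdk4*, the partner kinase of the D cyclins, had 549.5 ± 62.2, 426 ± 44.2 and 149 ± 14.97 CPM, between the outer classes, with the larger step on the ROS+++ side. *E2f8* had 16.9, 24.1 and 0.506 CPM, and its difference from ROS+ was 0.51 ± 0.46 (adjusted p = 0.444). The other genes highest in ROS++, *Cdk2* and *Rbl1*, were seen after the fact, and *Cdk2* was highest with library totals only. Under each of the other 3 scalings 8 genes of the list were higher and 4 lower, and 2, 1 and 1 were lowest in ROS++ (relative log expression, TMM and upper-quartile factors).

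**Figure D2:**
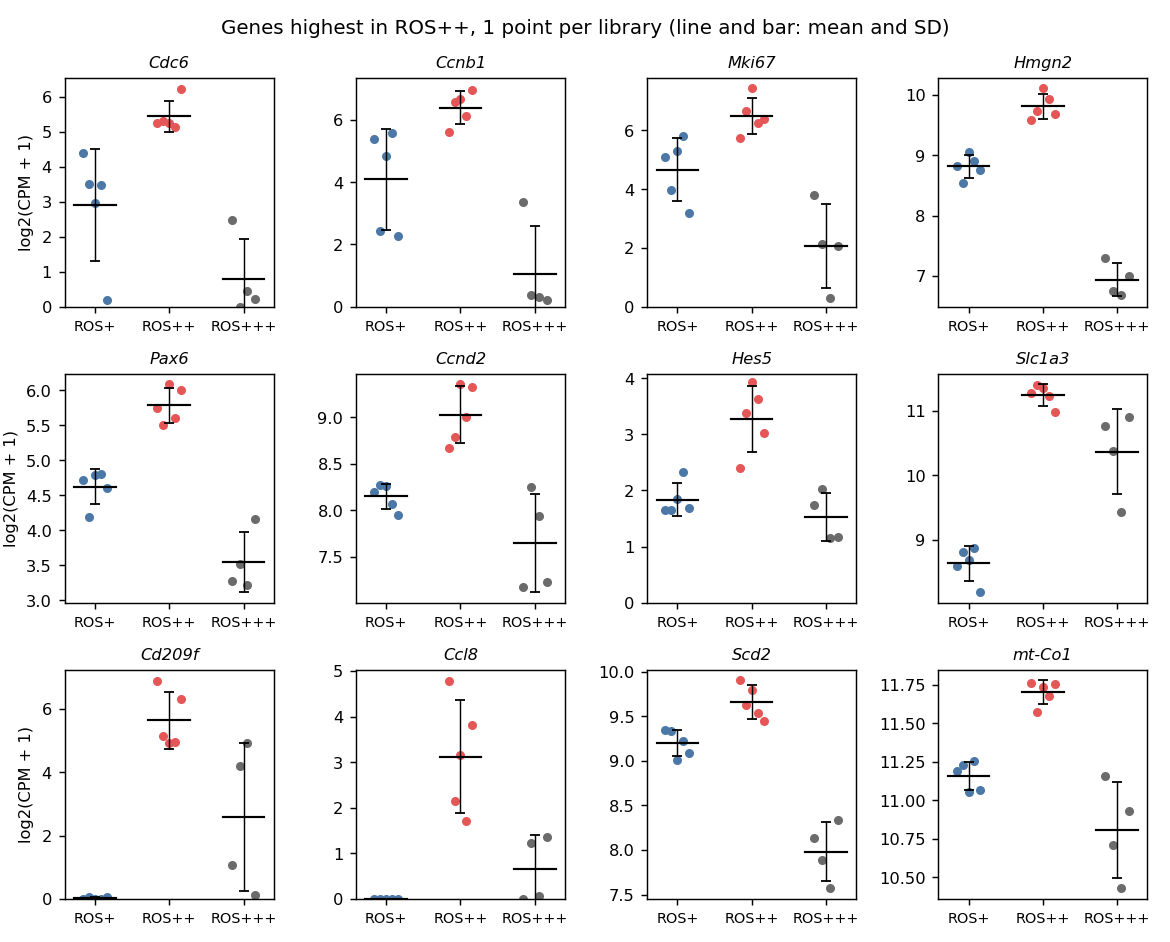
The 14 libraries are points, in log2(CPM + 1), for 12 genes highest in ROS++, with class means as lines and SD as bars. ROS++ is above both classes in every panel, *Mki67* overlaps with ROS+, and *Cd209f* and *Ccl8* are at or near 0 in all ROS+ libraries.

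Radial glia-like stem cell genes were mostly higher in ROS++ than the average of the outer classes, 27 of 32 with 0 lower, and 9 were highest in ROS++. Without ROS++ replicate 3 or 4, 19 or 21 were called higher. Under the relative log expression, TMM and upper-quartile factors 21, 22 and 22 were. The median contrast was 1.43. The median difference was 2.16 from ROS+ and 0.88 from ROS+++. In 24 of the 32 the highest mean log2(CPM + 1) was in ROS++, beside 4234 of all 15102 genes. The summed CPM of the list did not peak there, at 13623 to 16681 in ROS++ and 16603 to 20087 in ROS+++ libraries. *Pax6*, a transcription factor of neural progenitors, had 52.4, 44.2, 66.7, 47.7 and 62.97 CPM in the ROS++ libraries, against 25.4, 17.3, 26.7, 26.8 and 23.2 in ROS+ and 8.69, 10.5, 8.29 and 16.9 in ROS+++. The classes did not overlap, and its contrast was 1.70 ± 0.20 (adjusted p = 4.23e-05). *Hes5*, an effector of Notch signalling, was low throughout, with 4.29, 9.44, 14.3, 11.3 and 7.09 CPM in the ROS++ libraries, against 2.13, 2.16, 2.59, 4.05 and 2.205 in ROS+ and 2.34, 3.09, 1.24 and 1.26 in ROS+++. Its lowest ROS++ library was just above the highest ROS+ library. *Slc1a3*, the glial glutamate transporter GLAST, had 401 ± 70.3, 2437 ± 265 and 1412 ± 540.2 CPM. It differed from ROS+++ by 0.88 ± 0.23 (adjusted p = 0.00704), and lost this comparison under the relative log expression (0.46, adjusted p = 0.0917) and TMM factors (0.55, adjusted p = 0.0535), in a range of 0.00182 to 0.0917 over the alternatives. *Fabp7*, *Thrsp*, *Ddah1*, *Scd1*, *Sox1* and *Sox9* completed the 9 and were named after their values were seen. *Fabp7*, a fatty acid binding protein, had 516, 864 and 267 CPM, and *Thrsp*, a regulator of lipogenesis, 92.96, 693 and 331 CPM. Both kept the call under all 4 scalings, which *Ddah1*, *Scd1*, *Sox1* and *Sox9* did not: 5, 5 and 7 of the list were highest under the relative log expression, TMM and upper-quartile factors.

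Other stem cell markers were not called highest in ROS++, though *Sox2*, *Notch2* and *Gfap* had their highest means there. *Sox2* had 29.8 to 81.4 CPM in the ROS++ libraries, against 21.03 to 32.95 in ROS+ and 5.06 to 23.9 in ROS+++, with an adjusted p of 0.0504 against ROS+ and 0.000179 against ROS+++. *Notch2* had 22.9, 383 and 329 CPM and *Gfap* 7.49 ± 7.401, 179 ± 53.6 and 128 ± 65.8 CPM, and their differences from ROS+++ did not pass (0.18 ± 0.27 and 0.58 ± 0.55). *Hopx* was uneven, at 21.1, 8.91, 87.1, 135 and 8.19 CPM over the ROS++ libraries, and its contrast of 1.87 ± 0.62 (adjusted p = 0.0437) missed the threshold in 14 of 26 alternatives, the other 3 scalings included. *Nes* had a contrast of 0.64 ± 0.20 (adjusted p = 0.0333) with ROS++ between the classes, and missed it in 11, again under all 3 other scalings.

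The list of neuronal intermediate progenitors had 11 of 22 genes higher, 0 lower and 3 highest in ROS++, and under each of the other 3 scalings 2 were lower. Its summed level was 2169.9 to 2704 CPM in the ROS++ libraries, below every ROS+++ library (3293 to 3841) and overlapping with ROS+ (2591 to 3436), and *Btg2*, an antiproliferative gene that the list holds, was the most abundant member in ROS+++ (2610.0 ± 288 CPM, against 599.9 ± 159 in ROS++). *Insm1*, a zinc finger factor of neurogenic divisions, had 8.05 ± 1.201, 17.4 ± 9.15 and 0.144 ± 0.116 CPM, and its difference from ROS+, 0.92 ± 0.33 (adjusted p = 0.043), failed in 11 of 26 alternatives, among them the loss of any 1 ROS+ library or of ROS++ replicate 2, 3 or 4 (0.0572 to 0.123). Without ROS++ replicate 3, 1 gene of the list was highest. Another of the 3, *Tfap2c* (0.576, 7.54 and 1.92 CPM), was seen after the fact and was highest with library totals only. *Eomes* (Tbr2), the defining marker of these progenitors, had 44.99, 69.4, 82.1, 76.00 and 71.4 CPM in the ROS++ libraries, against 31.9, 35.5, 59.1, 47.9 and 58.7 in ROS+ and 0.191, 0.147, 0.143 and 0.236 in ROS+++. ROS+ and ROS++ overlapped and ROS+++ was near the limit that a count of 0 allows. Its contrast of 3.21 ± 0.22 came from the ROS+++ side, and the difference from ROS+ was 0.57 ± 0.25 (adjusted p = 0.1). *Olig2*, a factor of progenitors and the oligodendrocyte lineage, had 54.5, 89.4 and 4.305 CPM.

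Neuroblast and neuron genes were called higher at about the share of all genes, 15.0%, and lower above the share of all genes, 2.81%. Of 27 neuroblast and immature granule neuron genes 4 (14.8%) were higher, 4 (14.8%) lower and 1 was lowest in ROS++. Without ROS+++ replicate 1 or 4, 8 or 7 were higher. The median difference was -2.31 from ROS+ and 3.07 from ROS+++, and the medians place ROS++ between the classes. *Neurod1* had 1538 ± 257, 86.7 ± 32.2 and 2.498 ± 2.903 CPM. Its contrast of 0.34 ± 0.32 did not pass (adjusted p = 0.531), and turned to -0.17 with 4 CPM added in place of 1. *Dcx* had 444 ± 62.4, 81.5 ± 25.3 and 3.17 ± 3.803 CPM, with a contrast of 1.14 ± 0.41 (adjusted p = 0.066). *Neurod2* was called lower, at 18.3 to 35.00 CPM in ROS+ and under 1 CPM in every other library. In the mature neuron list 2 of 18 genes (11.1%) were higher, 3 (16.7%) lower and 1 was lowest. Under each of the other 3 scalings 1 was higher and 5 lower. Without ROS++ replicate 3, 1 was higher and 1 lower, and without ROS++ replicate 2 or ROS+++ replicate 2, 1 was higher. The lower ones were all subunits of the NMDA receptor, *Grin1* (4.25, 1.04 and 2.18 CPM), *Grin2b* (106, 18.2 and 9.57 CPM) and *Grin2a*.

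Glial lists were high in ROS++ in different ways. Of 25 mature astrocyte genes 17 were higher, 0 lower and 3 highest in ROS++. *Itih3* had 5.000 ± 1.78, 141 ± 42.3 and 66.2 ± 24.3 CPM, with every ROS++ library above all others, and lost the comparison with ROS+++ under the relative log expression factors (0.69, adjusted p = 0.0690, range 0.00219 to 0.069). The others, seen after the fact, were *Kcnj10*, a potassium channel (119.8, 224 and 38.6 CPM), and the glutamate transporter gene *Slc1a2* (383, 1004 and 675 CPM), the latter with library totals only. Without 1 library 1 to 5 of the list were highest, 1 without ROS+ replicate 3 or 5 or ROS++ replicate 1, and 5 without ROS+++ replicate 4. *Mlc1*, an astrocyte endfoot membrane protein, had 1.88, 136 and 96.7 CPM, and its ROS++ and ROS+++ libraries overlapped. Among 19 oligodendrocyte precursor genes 17 were higher and 0 lower, and 0 were highest in ROS++. The median difference was 0.13 from ROS+ and 4.35 from ROS+++: *Sox10*, the lineage factor, had 99.4, 124 and 5.65 CPM, and *Olig1* 146, 264 and 8.41 CPM. *Enpp6*, of newly forming oligodendrocytes, had 194 CPM in ROS+, 138 in ROS++ and 1.67 in ROS+++, and its difference of -0.48 ± 0.44 from ROS+ did not pass (adjusted p = 0.461).

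Of 19 myelinating oligodendrocyte genes 17 were higher, 0 lower, and 4 were highest in ROS++: *Mobp*, *Mog*, *Opalin* and *Tspan2*, seen after the fact. The ROS++ libraries fell apart in this list, with sums of 12158, 3815, 10518, 10001 and 2590 CPM in replicates 1 to 5, against 2445 to 6362 CPM in ROS+ and 619 to 807 CPM in ROS+++. *Opalin* had 198, 10.7, 86.04, 116 and 6.11 CPM in the ROS++ libraries, against 0 to 3.41 in ROS+ and 4.53 to 12.2 in ROS+++. Replicates 2 and 5 of ROS++ lay within the ROS+++ range. Without ROS++ replicate 1, 3 or 4, 13 of the 19 were called higher and 0 were highest in ROS++. The number highest in ROS++ was 10 without replicate 5 of ROS++, and 1 without replicate 2 or 5 of ROS+ or any ROS+++ library. Under each of the other 3 scalings 15 were called higher and 1, *Tspan2*, was highest in ROS++. In a limma-voom fit 10 were called higher and 0 were highest.

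**Figure D3:**
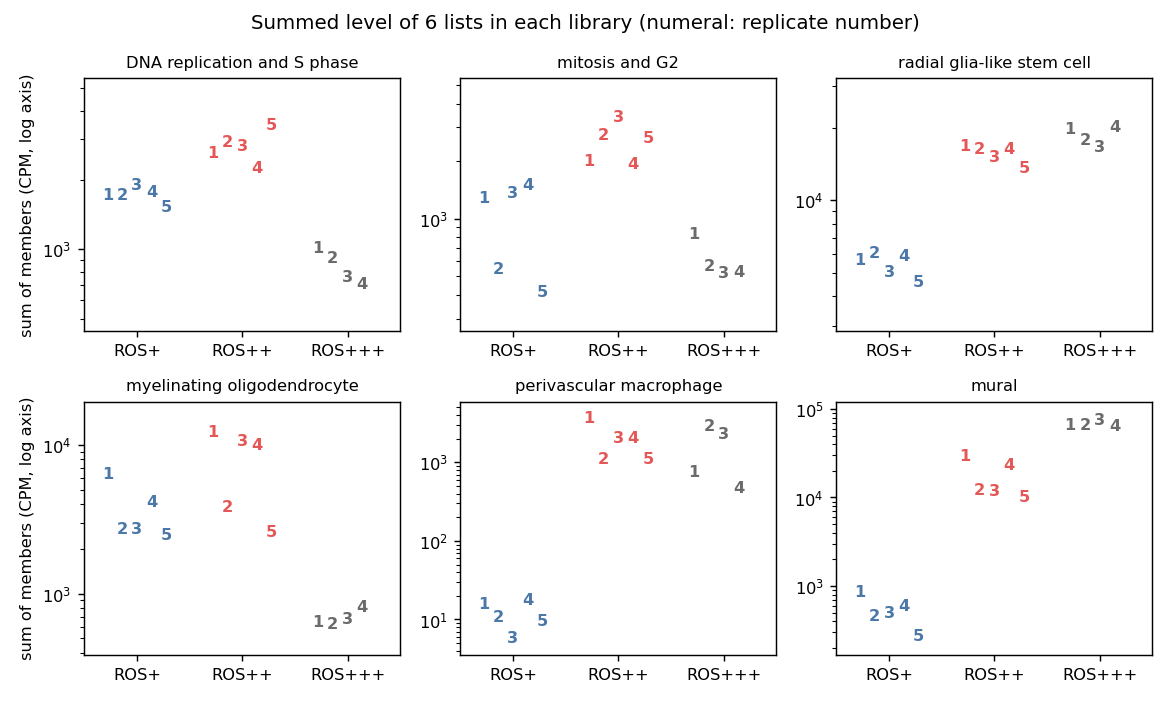
Summed CPM of 6 lists in each library, on log axes, with the replicate number as the symbol. The S phase sums of ROS++ lie above both other classes, the mural sums rise with class, and the myelin sums of ROS++ spread from 2590 to 12158 CPM.

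Genes of other cell types were followed through the same contrast. Of 17 perivascular macrophage genes 15 were higher, 0 lower and 3 highest in ROS++, with a median contrast of 3.76. Their sum was 1083 to 3650 CPM in the ROS++ libraries, against 5.66 to 17.5 in ROS+ and 458 to 2867 in ROS+++, so that these genes were nearly absent in ROS+ and overlapped between ROS++ and ROS+++. The lectin genes *Cd209g* and *Cd209f*, close together at chr8:4134098-4137707 and chr8:4102787-4105835 (GENCODE M21, GRCm38), headed all genes highest in ROS++. *Cd209f* had 117, 34.6, 29.1, 29.9 and 77.7 CPM in the ROS++ libraries, against 0, 0.04800, 0, 0 and 0.0469 in ROS+ and 1.098, 17.4, 29.00 and 0.0787 in ROS+++. *Cd209g* had 20.1, 10.7, 19.5, 6.24 and 30.1 CPM in the ROS++ libraries, against 0.07901, 0, 0, 0.0426 and 0 in ROS+ and 0, 2.55, 1.57 and 0 in ROS+++. All ROS++ libraries were above all others, and the ROS+ values are under the limit that a count of 0 allows, so that the fitted differences (3.99 from ROS+ for *Cd209g*) depend on the 1 CPM added. The split of reads within this gene family is uncertain. *Ccl8*, a chemokine, had 0 reads in all 5 ROS+ libraries, 26.5, 3.43, 7.93, 2.249 and 13.1 CPM in ROS++ and 0, 1.33, 0.0476 and 1.57 CPM in ROS+++. *Mrc1*, the mannose receptor, had 229, 104, 246, 238 and 92.4 CPM in ROS++ and 5.58, 172, 207 and 29.9 CPM in ROS+++, and did not pass against ROS+++ (1.69 ± 0.76, adjusted p = 0.0913). *Clec10a*, a lectin seen after the fact, was the third of the list and was highest with library totals only (0.115, 42.7 and 17.7 CPM). ROS+++ replicates 2 and 3 held most of this RNA: without replicate 2, 10 of the 17 were highest in ROS++, without replicate 3, 9, and without others 2 to 4.

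The summed level of broader pan-myeloid genes was 958 to 2639 CPM in the ROS++ libraries and overlapped with ROS+++ (789.8 to 3143), against 31.0 to 52.1 in ROS+. The microglia sum was 1235 to 2327 CPM in ROS++, below every ROS+++ library (3279 to 4629) and above ROS+ (133 to 238), and *Sparc*, which other cells also express, was most of it in ROS++ and ROS+++ (98.2 ± 39.7, 1309.9 ± 363 and 3399 ± 393 CPM). Of 20 pan-myeloid genes 17 were higher, 1 (*Coro1a*, of the actin cytoskeleton, at 24.8, 18.5 and 47.5 CPM) lower and 0 highest in ROS++, with a median difference of 5.34 from ROS+ and -0.29 from ROS+++. Of 14 microglia genes 8 were higher and 1, *Sall1*, a microglial transcription factor, was highest (12.8 ± 5.44, 44.6 ± 12.9 and 17.5 ± 6.51 CPM). *Csf1r* had 0.5201, 133 and 98.9 CPM and *Fcrls* 0.0363, 123 and 80.4 CPM. Both were much lower than *Sall1* in ROS+, and which cells held the *Sall1* RNA was not tested. Mural genes followed the ROS order: 14 of 21 were called higher, all 14 with ROS++ between the classes, and their median difference was 5.09 from ROS+ and -2.05 from ROS+++. *Casq2* had 0.851 ± 0.729, 311 ± 112 and 1622 ± 115 CPM and *Pdgfrb*, the pericyte receptor, 7.23 ± 9.81, 450.4 ± 224 and 1725 ± 347 CPM. *Pdgfrb* lost its call without replicate 1 or replicate 4 of ROS++, which held the highest mural sums of that class (contrasts of 1.98 and 2.11). Of 20 endothelial genes 2 were called higher and 0 lower, no more than the shares of all genes, 15.0 and 2.81%. The part of these cell types in the division, glial or other results was not tested.

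Mitochondrial genes depended on the scaling. All 7 mitochondrially encoded protein genes tested were higher and 6 were highest in ROS++ with library totals. *mt-Co1*, a subunit of cytochrome c oxidase, had 3469, 3052, 3414, 3281 and 3459 CPM in the ROS++ libraries, against 2330.3, 2395, 2121, 2442 and 2143 in ROS+ and 2281, 1673, 1375 and 1950.1 in ROS+++, and was the only one of them to stay highest under all 4 scalings. Under the relative log expression factors 4 of the 7 were called higher. *mt-Nd6*, on the other mitochondrial strand, had 183 ± 18.1, 386 ± 76.7 and 219 ± 62.6 CPM, and reads cannot be assigned to a strand here. Nuclear respiratory chain genes had 12 of 78 called higher (15.4%, beside 15.0% of all genes) and 5 highest (6.41%, beside 2.73%). The 5 were *Atp5e*, *Atp5h*, *Atp5j2*, *Ndufa3* and *Ndufc2*, none of them highest in all 4 scalings. Under the relative log expression, TMM and upper-quartile factors 4, 5 and 5 genes of this list were called higher. Without 1 library the calls numbered 6 (without replicate 2 of ROS++) to 13, and without replicate 3 or 5 of ROS+ or replicate 2 of ROS+++ 7 or 8. *Ndufc2* had 298, 427 and 272 CPM and lost its call under the relative log expression factors. Of 82 cytosolic ribosomal protein genes 12 (14.6%, beside 15.0% of all genes) were higher and 0 highest. The count was 6 without ROS++ replicate 2, and 0, 2 and 2 under the relative log expression, TMM and upper-quartile factors.

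In the antioxidant and NRF2 list 17 of 41 genes were higher, 0 lower and 4 highest in ROS++, with a median contrast of 0.44. *Taldo1*, of the pentose phosphate pathway, had 481, 478, 516, 437 and 355 CPM in the ROS++ libraries, against 479, 346, 287, 350.4 and 302 in ROS+ and 286, 242, 245 and 238 in ROS+++. The ROS++ and ROS+ libraries overlapped, and the comparison with ROS+ (adjusted p = 0.041) failed in 8 of 26 alternatives, each without 1 library (ROS+ replicate 2 to 5 or ROS++ replicate 1 to 4; adjusted p up to 0.1177). The other 3, *Gclc* and *Gss* of glutathione synthesis and *Gpx3*, a secreted peroxidase, were seen after the fact, with *Gss* at 22.6 ± 3.699, 44.9 ± 14.8 and 20.3 ± 1.52 CPM. *Gpx3* kept the call under all 4 scalings, *Gss* under 3 and *Gclc* with library totals only. Without 1 library the number highest in ROS++ ran from 1 (without replicate 2 of ROS+, or 3 or 4 of ROS++) to 8 (without replicate 4 of ROS+++). Of 14 oxidant-producing genes 7 were higher and 0 highest. These include *Cybb* and *Ncf1* of the phagocyte oxidase, and 2 were called without replicate 3 of ROS++ and 3 without replicate 1. Of 29 lipogenesis and cholesterol genes 7 were higher (4 without ROS++ replicate 2 or 3 and under each of the other 3 scalings), and *Scd2*, a stearoyl-CoA desaturase, was highest, with 956, 786, 886, 741 and 695 CPM in the ROS++ libraries, against 651, 642, 515, 597 and 542 in ROS+ and 280.0, 235, 189 and 323 in ROS+++, no overlap, and a contrast of 1.07 ± 0.11 (adjusted p = 1.85e-05).

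Counts in the remaining lists stand beside 15.0% of all genes called higher and 2.81% called lower. They were fatty acid oxidation (5 of 27 higher, 0 lower), glycolysis (6 of 23 higher, 1 lower), proteasome subunits (6 of 38 and 0), splicing factors (6 of 40 and 2), ribosome biogenesis (3 of 29 and 0), p53 targets (4 of 23 and 2), the unfolded protein response (7 of 21 and 0), interferon response (6 of 23 and 0), Notch signalling (9 of 23 and 0) and leptomeningeal fibroblast genes (4 of 12 and 1). Several of these counts rested on single libraries. Proteasome genes called higher fell to 2 without ROS++ replicate 2 or 5 or ROS+++ replicate 2 and to 3 without ROS+ replicate 3. Interferon genes fell to 2 without ROS++ replicate 3 or 4 and to 3 without ROS++ replicate 2, ROS+ replicate 3 or ROS+++ replicate 4. Ribosome biogenesis genes fell to 1 without ROS++ replicate 4. Leptomeningeal genes fell to 2 without ROS++ replicate 2 or 3, and the lower one was lost without ROS++ replicate 2, 3 or 5. The lower genes fell to 1 in the p53 list without ROS++ replicate 2 or 3, and in the splicing list without ROS++ replicate 1, 2 or 3, ROS+ replicate 2, 3 or 5 or ROS+++ replicate 3 or 4. Scaling moved them too. Under the relative log expression, TMM and upper-quartile factors 0, 1 and 1 proteasome genes were higher and 4, 3 and 3 lower, and 2, 3 and 3 splicing genes were higher and 8, 6 and 6 lower. Of the interferon list 0, 1 and 1 were higher, of fatty acid oxidation 3, 4 and 4, of the unfolded protein response 3, 4 and 4, and of glycolysis 3, 4 and 4 with 3 lower under each. Ribosome biogenesis had 1 higher and 1 lower and the leptomeningeal list 2 higher under each. Of 3 ependymal genes 1 was higher, and the 1 erythroid gene tested, *Alas2*, was not called. *Canx* and *Pdia3*, chaperones of the endoplasmic reticulum, were highest in ROS++ with library totals and lost that call under the other 3 scalings, as did the proteasome gene *Psmb2*. The immediate early and dissociation stress list had 3 of 26 higher and 5 lower, all 8 with ROS++ between the classes. Without ROS++ replicate 1 or 3, 1 was higher. The lower genes fell to 2 without ROS++ replicate 2 or 5 and to 3 without ROS+ replicate 3 or 5 or ROS+++ replicate 2, 3 or 4.

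**Figure D4:**
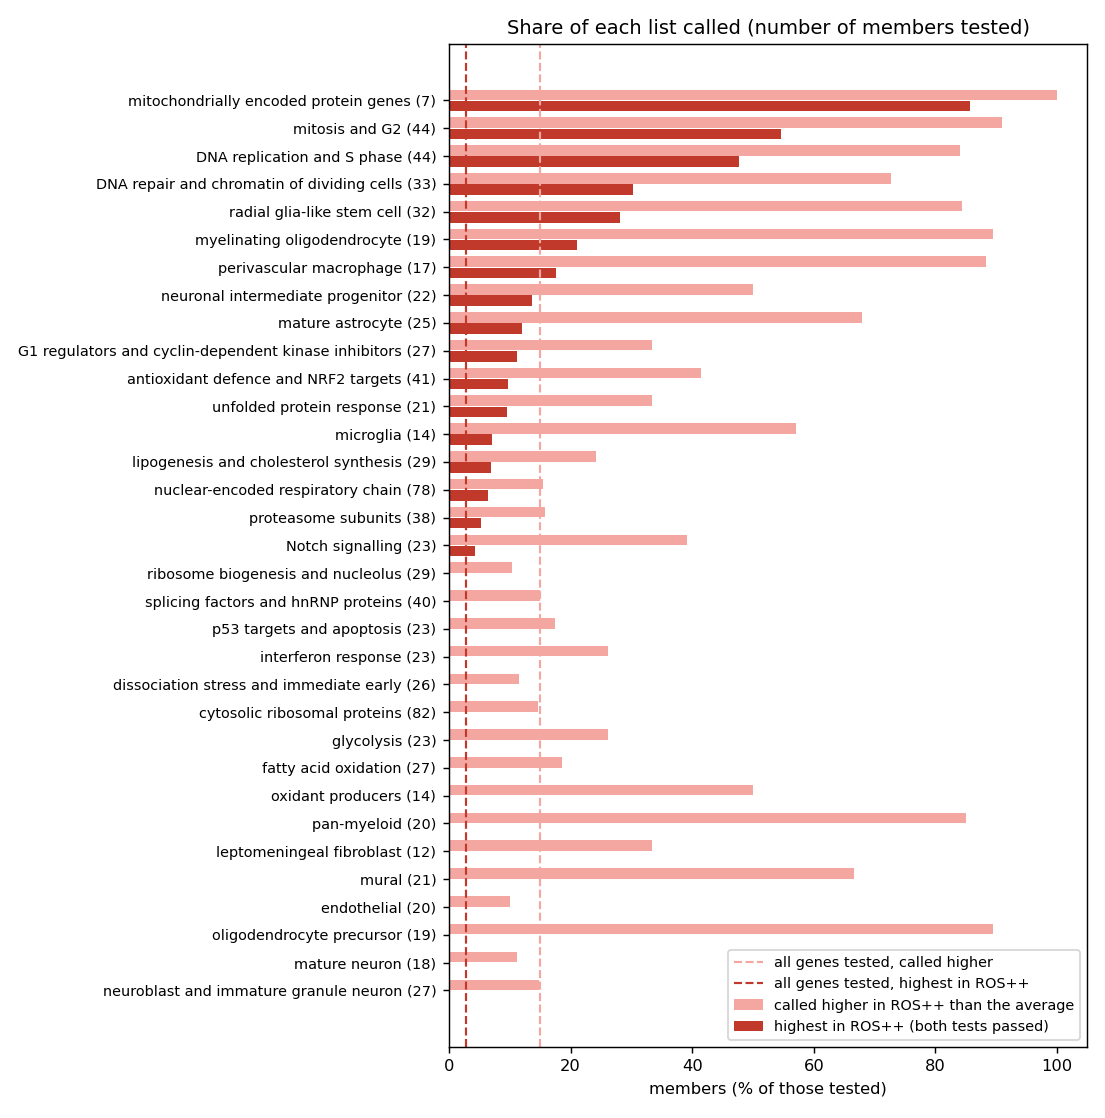
Share of the tested members of each list that were called higher in ROS++ (light bars) and that were highest in ROS++ (dark bars), with dashed lines at the values over all genes tested, 15.0 and 2.73%. Division lists and mitochondrially encoded genes have the longest dark bars, and the oligodendrocyte precursor and mural lists have long light bars and no dark bar.

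Genes lowest in ROS++ were fewer, and 4 of the 76 were in a list: *Bhlhe22* (neuroblast), *Grin2a* (mature neuron), *Slc2a3* (glycolysis) and *Sesn1* (p53 targets). *Rerg*, a RAS-related GTPase named for restraining growth, was among the lowest (chr6:137054825-137170497). It had 56.4, 24.1, 24.6, 38.6 and 22.1 CPM in the ROS++ libraries, against 119.6, 91.6, 174, 124 and 198 in ROS+ and 96.7, 146, 109 and 94.2 in ROS+++. Every ROS++ library was below all others while the outer classes overlapped, and the contrast was -1.94 ± 0.22 (adjusted p = 3.27e-05). *Rab3a*, a GTPase of synaptic vesicles, had 20.2, 15.3, 29.4, 26.01 and 15.7 CPM in the ROS++ libraries, against 48.5, 36.1, 50.9, 38.8 and 70.1 in ROS+ and 54.7, 59.4, 39.6 and 59.98 in ROS+++, with a contrast of -1.24 ± 0.21. *Syt5*, a synaptotagmin of secretory vesicles, had 3.405 to 7.38 CPM in the ROS++ libraries, against 8.26 to 34.2 in ROS+ and 12.7 to 20.05 in ROS+++. *Zfp712*, a zinc finger gene, had 0.314, 6.44, 10.1, 4.96 and 9.06 CPM in ROS++ against 15.8 to 33.5 in ROS+ and 10.8 to 26.9 in ROS+++, with no overlap and the lowest value in ROS++ replicate 1.

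Signalling genes were among them as well. *Nuak1*, a kinase related to AMPK, had 8.53 to 14.4 CPM in ROS++ against 23.9 to 52.7 in ROS+ and 15.3 to 34.3 in ROS+++. *Angpt1*, a ligand of the Tie2 receptor, had 6.49 to 17.4 CPM against 25.5 to 48.8 and 18.5 to 29.6, and *Fhl2*, a LIM domain protein, 3.300 to 9.55 CPM against 11.9 to 20.5 and 15.7 to 33.95. *Palmd*, palmdelphin, had 27.1 ± 7.97 CPM in ROS++ and nearly equal means of 60.7 and 58.5 CPM in the outer classes. These 8 genes, from *Rerg* to *Palmd*, kept the call in all 26 alternatives. *Bhlhe22*, a transcription factor of developing neurons, had 4.03, 6.06, 4.65, 2.61 and 0.982 CPM in the ROS++ libraries, against 17.3, 21.03, 29.7, 23.1 and 27.1 in ROS+ and 6.35, 11.2, 6.38 and 6.77 in ROS+++. It stayed below both classes in 14 of 26 alternatives. The comparison with ROS+++ was lost without ROS+ replicate 2, 3, 4 or 5, ROS++ replicate 4 or 5, or ROS+++ replicate 2, 3 or 4. It was also lost with the library-number sets as a block (0.0571), with 4 CPM added in place of 1 (0.0532) and in a limma-voom fit (0.0804). The difference of *Bhlhe22* from ROS+++ was -0.98 ± 0.37 (adjusted p = 0.042, range 0.0076 to 0.127). Of the leading genes, 3 are not protein coding in GENCODE M21: *Ifi203-ps*, a pseudogene (19.01 ± 4.48, 4.57 ± 3.28 and 22.1 ± 3.42 CPM), *2610307P16Rik* (23.3 ± 4.82, 8.46 ± 3.13 and 28.3 ± 10.8 CPM), and *Gm15708*, annotated within an intron. *Gm15708* failed in 8 of 26 alternatives, 6 of them without 1 library (ROS+ replicate 2 or 5, ROS++ replicate 1 or 4, ROS+++ replicate 2 or 3). It also failed with the library-number sets as a block (adjusted p = 0.0512 against ROS+ and 0.0642 against ROS+++) and in the limma-voom fit (0.0621 against ROS+). Reads shared with related genes or a host gene make the levels of these 3 genes uncertain. The same holds for *4631405J19Rik*, an antisense gene among the leading genes highest in ROS++ (0.05396, 12.7 and 0.956 CPM), because strand was not recorded.

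The members of lists other than *Bhlhe22* overlapped with other libraries. *Grin2a*, a subunit of the NMDA receptor, had 0.681, 6.28, 0.298, 0.869 and 3.77 CPM in the ROS++ libraries, against 8.41, 5.95, 9.45, 9.85 and 3.33 in ROS+ and 11.2, 12.8, 3.91 and 5.43 in ROS+++, with replicate 2 of ROS++ inside the range of both other classes. It missed the threshold in 6 of 25 alternatives, without ROS+ replicate 3 or 4, ROS++ replicate 1, 3 or 4, or ROS+++ replicate 2 (0.0518 to 0.0607). *Slc2a3*, the neuronal glucose transporter, had 59.7 ± 10.98, 35.3 ± 5.004 and 60.2 ± 23.03 CPM, and *Sesn1*, a stress-induced inhibitor of mTORC1 signalling, 69.8 ± 4.68, 51.4 ± 15.6 and 81.2 ± 4.51 CPM. Both were outside the rule for named genes, and the call of *Sesn1* held with library totals only.

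**Figure D5:**
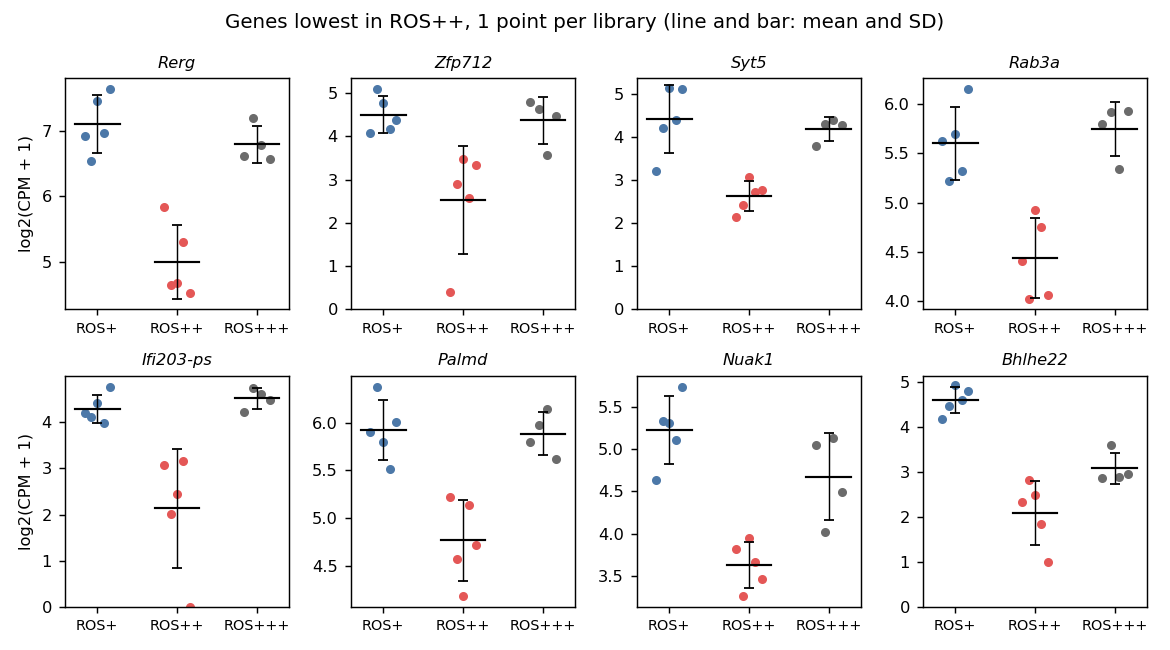
The 14 libraries are points, in log2(CPM + 1), for 8 genes lowest in ROS++, with class means as lines and SD as bars. In each panel all 5 ROS++ libraries are below every other library.

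The 844 called genes with ROS++ between the other classes include many with an even rise or fall on another scale. Of the 719 above the midpoint, 243 rose with ROS and 476 fell, and of the 125 below it, 48 rose and 77 fell. For 174 of the 719 (24.2%) the ROS++ mean in CPM was below the midpoint of the other means, as in *Casq2* and *Pdgfrb*, so that the direction of their contrast holds on the log2 scale only. No such turn occurred among the 125, and the 413 and 76 genes above and below both classes were so in CPM as well. The largest positive contrasts of this kind were *Lyz2* (4.00 ± 0.33), *Ccl4*, *Fcer1g* and *Ccl3* of myeloid cells, all near 0 in ROS+ and with overlapping ROS++ and ROS+++ libraries. *Lyz2*, lysozyme, had 212 to 868 CPM in the ROS++ libraries, against 0.07901 to 0.223 in ROS+ and 222 to 1173 in ROS+++. Among the largest negative ones were *Zfp385b* (-2.37), *Adamts18* (-2.17) and *Cpne9* (-2.10), with means of 51.04, 50.7 and 40.02 CPM in ROS+ and at most 6.01 CPM in any other library.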

How the data were processed

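RNA of 14 libraries was measured, 5 ROS+, 5 ROS++ and 4 ROS+++. Per the labels' protocols, poly-dT-primed cDNA was made by template switching, with 12 cycles of amplification and without strand or molecular identifiers. Per the submitters' processing notes, the authors used STAR, edgeR and genome build mm10 (versions: not given in the sources used here). What the authors deposited is 1 table, in which 15119 genes have log2 values. These share a lowest value of -4.36 and sum to 1000736 on the linear scale. A count of whole reads was recovered from them within 0.001 reads and scaled to library totals (CPM). Each listed gene has at least 82 reads in all. Genes with at least 1 CPM in at least 4 libraries were kept (15102, with 17 removed). In limma 3.58.1 (R 4.3.3, statmod 1.5.0), log2(CPM + 1) was fitted with 1 mean per class (11 residual degrees of freedom), a mean-variance trend and robust moderation. Errors of differences are standard errors, errors of levels are SD. Adjusted p-values are Benjamini-Hochberg over all genes of a comparison. The contrast and the 2 pairwise comparisons share samples. The script was tested on simulated data. Within a class, 26 replicate pairs had chi-square over degrees of freedom between 34.0 and 162, and across genes, which are not independent, r between 0.873 and 0.967. Symbols came with 15060 genes and GENCODE M21 positions with 15065. The 35 lists and the contrast were chosen with earlier results of these data known. Named genes were the 12 highest and 12 lowest by the smaller pairwise difference (libraries separate, a class mean of at least 10 CPM), the 3 members of each list with the smallest adjusted p, the 4 largest contrasts in each direction with ROS++ between the classes, and 12 markers, 139 genes in all. The 26 alternatives changed the pseudocount, filter, scaling, weighting, moderation, contrast, block or libraries. Some genes that this rule selects are not reported here.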

Additional observations from a re-analysis of the deposited data

Results flagged for a closer look

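In each class, the highest and the lowest library of the 139 named genes were compared with the rest of the class by the gap to the nearest other library over the whole range (Dixon's ratio). Of 417 groups 25 (6.0%) had a library standing apart at the 95% critical value, where chance gives about 1 in 20. None of these values is explained here, and the cause was not tested. ROS+++ replicate 1 gave 5 of them, replicates 2, 3 and 4 of ROS+++ 2, 3 and 1, replicates 1, 2, 3 and 5 of ROS++ 3, 3, 1 and 2, and replicates 3, 4 and 5 of ROS+ 1, 3 and 1.

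Among the genes highest in ROS++, *Cdc6* reached 73.2 CPM in ROS++ replicate 5 against 34.4 to 38.9 CPM in the others. *Hspb8* was at 0.143 CPM in ROS+++ replicate 3 against 17.8 to 26.4 CPM. *Ccnb1* was at 9.26 CPM in ROS+++ replicate 1 against 0.157 to 0.294 CPM, and *Ndc80* at 5.33 CPM in ROS+++ replicate 3 against 0.0491 to 0.394 CPM. *Hes5* was at 4.05 CPM in ROS+ replicate 4 against 2.13 to 2.59 CPM, and *Taldo1* at 286 CPM in ROS+++ replicate 1 against 238 to 245 CPM. *4631405J19Rik* was at 0.188 CPM in ROS+ replicate 5, with the others at up to 0.0426 CPM, and at 3.24 CPM in ROS+++ replicate 2 against 0.0955 to 0.333 CPM. Of the genes lowest in ROS++, *Bhlhe22* was at 11.2 CPM in ROS+++ replicate 2 against 6.35 to 6.77 CPM.

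Progenitor and cycle genes followed. *Eomes* was at 45.0 CPM in ROS++ replicate 1 against 69.4 to 82.1 CPM, *Cdk4* at 348 CPM in the same library against 433 to 454 CPM, and *E2f8* at 1.58 CPM in ROS+++ replicate 1 against 0.143 to 0.157 CPM. The neuronal gene *Syn2* was at 17.4 CPM in ROS++ replicate 1 against 41.4 to 56.7 CPM.

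Genes of myeloid, blood and vessel cells included *Csf1r* at 63.3 CPM in ROS++ replicate 2 against 132 to 177 CPM, and *Cybb* at 67.7 CPM in ROS++ replicate 3 against 30.1 to 34.6 CPM. In ROS+ libraries, *Fcer1g* was at 0.981 CPM in replicate 4 (others up to 0.0480), *P2ry13* at 2.64 CPM in replicate 4 (others up to 0.395) and *Ncf1* at 1.47 CPM in replicate 3 (others up to 0.240). *Alas2*, of red cell precursors, was at 50.8 CPM in ROS+++ replicate 4 against 0.143 to 1.18 CPM, and *Ramp2*, of endothelium, at 40.5 CPM in ROS++ replicate 5 against 20.4 to 23.4 CPM.

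Of the genes of common cell functions, *Ndufa4* was at 51.4 CPM in ROS+++ replicate 3 against 88.4 to 91.1 CPM, *Snrpd1* at 50.8 CPM in ROS+++ replicate 1 against 60.1 to 62.2 CPM, and *Casp8* at 39.1 CPM in that library against 24.3 to 25.9 CPM. In ROS++ replicate 2, *Rpl12* was at 148 CPM against 123 to 129.7 CPM and *Hsp90b1* at 614 CPM against 525 to 541 CPM.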

How the results depend on the processing

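Under the relative log expression, TMM and upper-quartile factors 60.5, 68.5 and 69.6% of the calls were higher in ROS++ (84.2% with library totals), and 230, 177 and 159 genes were lowest in ROS++ (76 with totals). Genes highest in ROS++ numbered 413 with totals and 1 CPM added, 343 with 0.25 CPM and 492 with 4 CPM. On the deposited log2 values they numbered 302, and in a limma-voom fit 469. Under the relative log expression factors they numbered 242. These factors also turned the median contrast of respiratory chain (-0.015), ribosomal protein (-0.038), proteasome (-0.054, and -0.0020 with TMM), p53 target (-0.019) and unfolded protein response genes (-0.014). The splicing list turned to -0.159, -0.107 and -0.094 under the 3 factors and to -0.0052 against the mean of all 9 other libraries. *Neurod1* turned to -0.17 against that mean and also with 4 CPM added. Without 1 library 2132 to 2819 genes were called, 280 to 429 were highest and 51 to 78 lowest in ROS++, 639 to 972 lay between the classes, 196 to 305 had separate libraries and 82.9 to 85.8% of calls were higher. Single libraries turned *Alas2*, the only erythroid gene tested (0.12 without ROS++ replicate 5, 0.40 without ROS+++ replicate 4, and down to -0.52 without ROS+++ replicate 3), the mature neuron list (0.013 without ROS++ replicate 5, down to -0.20 without ROS+++ replicate 2), the immediate early list (0.019 without ROS++ replicate 2, down to -0.31 without ROS++ replicate 3) and the p53 target list (-0.0269 without ROS+++ replicate 4, up to 0.28 without ROS++ replicate 4). For each of these the cause was not tested. Of the named genes' values under alternatives, 3490 kept direction and side of the threshold, 106 lost the threshold, 7 gained it and 4 turned. The labels do not say that libraries of the classes are paired. With sets of consecutive library numbers as a block, 2809 genes were called, 428 highest and 76 lowest. The erythroid list has no value with at least 10 CPM required. Depth limits genes under 0.119 to 0.236 CPM, and the number of libraries limits the rest.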

Other observations

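Genes of serine synthesis and of its use in the transsulfuration pathway were noticed among those highest in ROS++ after their values were seen, and no list covered them. *Phgdh*, the first enzyme of serine synthesis, had 115, 122, 188, 180.0 and 181 CPM in the ROS++ libraries, against 31.8, 34.6, 45.8, 60.6 and 40.3 in ROS+ and 42.4, 83.1, 55.3 and 117 in ROS+++. ROS+++ replicate 4 overlapped with the lowest ROS++ library, and the differences were 1.86 ± 0.25 from ROS+ and 1.14 ± 0.26 from ROS+++ (limma adjusted p = 1.58e-05 and 0.00215). *Psph*, the last enzyme, had 155, 209, 177, 181 and 166 CPM in the ROS++ libraries, against 94.9, 89.9, 71.3, 89.9 and 74.3 in ROS+ and 84.2, 103, 42.5 and 117 in ROS+++, with no overlap and nearly equal means in the outer classes (84.1 and 86.7 CPM). *Cbs*, which joins serine to homocysteine, had 11.8 ± 4.99, 92.5 ± 26.2 and 44.7 ± 21.8 CPM, and kept its place above ROS+++ with library totals but under none of the other 3 scalings. Other genes of the pathway did not share the pattern: *Psat1* had 305, 333 and 89.7 CPM, *Shmt1* 40.5, 30.6 and 5.03 CPM, and *Shmt2* 79.9, 70.04 and 64.7 CPM with a contrast of -0.06 ± 0.17 (adjusted p = 0.854).

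*Hspb8*, a small heat shock protein in no list, was among the leading genes highest in ROS++. It had 48.7, 43.4, 61.3, 72.7 and 54.2 CPM in the ROS++ libraries, against 3.95, 9.36, 7.85, 5.03 and 2.53 in ROS+ and 23.5, 17.8, 0.143 and 26.4 in ROS+++, and kept the call in all 26 alternatives. Of the 413 genes highest in ROS++, 388 are protein coding, and of the 76 lowest, 67.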
